A study of Mus musculus with 22 samples.

Results

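The 9 genes described here encode proteins of the myelin sheath: Mbp, Mobp, Cldn11, Mal, Cnp, Mag, Mog, Opalin and Ermn. They are 9 of the 22485 genes on the array, picked by gene symbol from the probe annotation, and 14 of the 33026 probes that name 1 gene belong to them. Mbp and Mobp have 3 probes each, Ermn has 2 and the others have 1; the brightest probe of a gene, by its mean over the 22 samples, is its main probe. The samples were glia sorted from the cortex of C57BL/6 mice aged 15 to 18 months. They comprised 4 astrocyte samples from APPswe/PS1dE9 mice (APP/PS1, transgenic for mutant amyloid precursor protein and presenilin), 4 astrocyte samples from wild-type (WT) littermates, 7 microglia samples from APP/PS1 mice and 7 microglia samples from WT littermates. Whether a sample was pooled from several animals is not given in the sources used here, so p-values measure the spread between these samples.

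Myelin is the stack of membrane that oligodendrocytes wrap around axons, and in the brain its structural genes are read mostly in mature oligodendrocytes. Microglia, the resident macrophages, take up myelin debris. Astrocytes, which clear glutamate through transporters such as GLT1, do not make myelin. Both sorts were meant to leave oligodendrocytes out: myelin was depleted with beads, O4, a surface antigen of oligodendrocyte-lineage cells, was stained and set as negative, microglia were gated as CD11b and CD45 positive and astrocytes as GLT1 positive and CD11b negative. In sorted samples fewer oligodendrocytes and less RNA per oligodendrocyte cannot be told apart, and a transcript in the sorted cells cannot be told apart from one in attached debris.

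RNA was amplified, labelled with Cy3 or Cy5 and hybridised to 2-colour Agilent arrays, 11 in all, with an APP/PS1 sample in one channel and the equally numbered WT sample in the other. The values are single-channel log2 intensities as deposited; their medians lay between 6.24 and 6.26 in all 22 samples. The APP/PS1 sample was in Cy3 on astrocyte arrays 1 and 2 and on microglia arrays 1, 3, 5 and 7, and in Cy5 on the others. All astrocyte arrays lay on slide 3 and the microglia arrays on slides 1 and 2. The 14 measured microglia markers had a median log2 value of 8.86 to 11.6 per APP/PS1 astrocyte sample, 6.43 to 8.04 per WT astrocyte sample, 14.8 to 15.1 per APP/PS1 microglia sample and 15.2 to 15.8 per WT microglia sample. The 13 measured astrocyte markers had medians of 12.8 to 14.9, 15.4 to 15.7, 5.45 to 6.83 and 6.08 to 7.70 in the same groups. The samples thus carried the markers of their labels, but the astrocyte samples also carried endothelial and mural markers. The 11 endothelial markers had medians of 11.83 to 12.73 per APP/PS1 and 10.84 to 11.75 per WT astrocyte sample. The 9 mural markers had medians of 12.07 to 14.03 and 9.94 to 13.08 in the same order. In APP/PS1 astrocyte samples the mural range overlapped that of the astrocyte list. In microglia samples the medians of both lists were 7.39 or below. The APP/PS1 astrocyte samples had more of the microglia list and less of the astrocyte list than the WT astrocyte samples. On 3 arrays the APP/PS1 and the WT sample differed by more than 3 log2 units in Eif2s3y, a gene of the mouse Y chromosome: astrocyte arrays 1 and 3 and microglia array 1. The number of arrays limits the precision of every value.

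Promoters are shown for context for Mal, Cldn11, Cnp and Ermn, which are 4 of the 5 members that changed with genotype in astrocyte samples, and for Mobp, which held the most matches to the motif searched. The fifth of those members, Mbp, is not shown. They are the 250 bases before the gene start in RefSeq's mouse assembly GRCm38.p6, 5′ to 3′ on the gene's strand. Mal lies at chr2:127656696-127656945 on the minus strand, Cldn11 at chr3:31149670-31149919 on the plus strand, Cnp at chr11:100574689-100574938 on the plus strand, Ermn at chr2:58052865-58053114 on the minus strand and Mobp at chr9:120149492-120149741 on the plus strand. Capitals mark the core letters ACAATG or ACAAAG, which transcription factors of the SOX family such as Sox10 bind, or their complements CATTGT and CTTTGT.
Mal: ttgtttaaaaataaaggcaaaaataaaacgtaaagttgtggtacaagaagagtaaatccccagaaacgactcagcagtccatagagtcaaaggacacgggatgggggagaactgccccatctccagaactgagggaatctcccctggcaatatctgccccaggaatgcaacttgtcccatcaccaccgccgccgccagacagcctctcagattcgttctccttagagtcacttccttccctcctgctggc
Cldn11: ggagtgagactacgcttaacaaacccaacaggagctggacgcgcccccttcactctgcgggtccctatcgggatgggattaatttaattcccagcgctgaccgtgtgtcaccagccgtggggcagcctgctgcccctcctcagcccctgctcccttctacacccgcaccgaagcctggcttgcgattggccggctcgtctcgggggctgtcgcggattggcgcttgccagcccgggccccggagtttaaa
Cnp: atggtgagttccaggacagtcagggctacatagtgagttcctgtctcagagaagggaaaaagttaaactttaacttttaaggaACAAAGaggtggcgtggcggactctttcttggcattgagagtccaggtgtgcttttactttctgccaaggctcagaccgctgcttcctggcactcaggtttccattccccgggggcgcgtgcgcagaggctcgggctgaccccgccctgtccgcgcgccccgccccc
Ermn: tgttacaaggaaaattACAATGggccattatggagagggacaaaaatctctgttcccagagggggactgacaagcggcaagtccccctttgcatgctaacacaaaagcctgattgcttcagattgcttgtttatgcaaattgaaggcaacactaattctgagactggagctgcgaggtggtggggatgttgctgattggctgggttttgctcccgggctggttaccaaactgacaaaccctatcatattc
Mobp: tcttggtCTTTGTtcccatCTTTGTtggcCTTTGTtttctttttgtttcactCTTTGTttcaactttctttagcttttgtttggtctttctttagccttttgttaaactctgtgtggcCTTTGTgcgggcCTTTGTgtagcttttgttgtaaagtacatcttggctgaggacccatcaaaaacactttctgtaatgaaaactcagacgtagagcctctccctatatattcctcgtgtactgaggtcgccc
The 8 genes other than Mbp had 10 promoters in the table, and 6 of these held a match, while 25.2% of all 32851 mouse promoters in the table did. Of the 6, 2 are overlapping Mag promoters that share 1 match; the third Mag promoter held 0. Mobp held 6 matches, and 1 promoter in the table held 6 or more. Mal, Cldn11 and Mog held 0, and Cnp, Ermn and Opalin held 1 each. Presence or absence of these letters in this window says nothing about binding.

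Levels of the myelin genes differed between the sorted populations, and not all in the same direction. Of the 9 members, 5 were lower and 2 were higher in astrocyte than in microglia samples at an adjusted p under 0.05, while 18.8% of 22395 genes tested were called lower and 36.9% higher. Mag, Mbp, Mobp, Cldn11 and Mog were lower in astrocyte samples, Mal and Cnp were higher, and Ermn and Opalin did not pass. The median difference was -0.88 over the members and 0.34 over all genes tested (log2, astrocytes minus microglia). Because no astrocyte array shared a slide with a microglia array, the slide and the cell type cannot be told apart.

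Mag, the sialic acid-binding adhesion protein of the membrane layer next to the axon, showed the widest gap among the members. Its log2 value was 4.50, 5.01, 5.31 and 4.71 in APP/PS1 astrocytes and 4.85, 4.66, 4.11 and 4.66 in WT astrocytes. Microglia from APP/PS1 mice lay between 9.95 and 10.5 with a median of 10.2, and microglia from WT mice between 10.2 and 10.7 with a median of 10.5. No astrocyte sample came near the microglia samples. The difference was -5.61 ± 0.23 (SE, log2; adjusted p = 2.62e-14). The astrocyte values lay below the median of all probes, and no call of signal over background was used here, so no fold is given; the same holds for other members at such values.

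Mbp, the basic protein that holds the cytoplasmic faces of compact myelin together, followed the same pattern at its main probe. It measured 6.41, 6.45, 6.23 and 5.74 in APP/PS1 astrocytes and 5.17, 4.95, 5.01 and 4.95 in WT astrocytes. The APP/PS1 microglia lay between 10.95 and 11.35 (median 11.11) and the WT microglia between 10.1 and 10.7 (median 10.4). The 4 groups did not overlap at this probe, and their order was APP/PS1 microglia, WT microglia, APP/PS1 astrocytes and WT astrocytes. Astrocytes were lower by a difference of -5.16 ± 0.15 (SE, log2; adjusted p = 4.08e-16). At the other 2 Mbp probes the differences were -1.16 and -3.31.

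Mobp, a small basic protein of compact myelin, was lower in astrocytes by a difference of -3.35 ± 0.23 (SE, log2; adjusted p = 1.21e-10). Its means were 4.33 ± 0.46 in APP/PS1 and 4.42 ± 0.59 in WT astrocytes (SD, n = 4 each), and 7.81 ± 0.42 in APP/PS1 and 7.65 ± 0.37 in WT microglia (SD, n = 7 each). The cell types did not overlap at this probe. Its other probes gave differences of -1.21 and -0.99.

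Cldn11, the claudin of the tight junction strands in central myelin, was lower in astrocytes by a difference of -2.84 ± 0.34 (SE, log2; adjusted p = 4.78e-07). APP/PS1 astrocyte sample 3, at 7.01, reached into the range of the WT microglia, which began at 6.77. The other 7 astrocyte samples lay at 5.45 or below. Mog, an immunoglobulin-like protein of the outermost myelin surface, differed by -0.50 ± 0.15 (adjusted p = 0.0058), and each pair of neighbouring groups overlapped. That call was lost with slide as a random block (adjusted p = 0.27) and in WT samples alone, where the difference was -0.26 (adjusted p = 0.28).

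Mal and Cnp ran the other way. Mal, a proteolipid of sphingolipid-rich membrane domains that also occurs in epithelia and T cells, was higher in astrocytes by 2.89 ± 0.31 (SE, log2; adjusted p = 8.5e-08), a 7.44-fold difference. It measured 12.8, 13.3, 12.6 and 13.5 in APP/PS1 astrocytes and 12.6, 11.7, 11.9 and 11.7 in WT astrocytes. The highest microglia sample measured 10.3. Endothelial and mural markers were also brighter in astrocyte samples, and their part in the Mal values was not tested. Cnp, the cyclic nucleotide phosphodiesterase of uncompacted myelin, was higher by 0.54 ± 0.17 (adjusted p = 0.010), and this call was lost with slide as a random block (adjusted p = 0.20). WT astrocytes carried the highest Cnp values, 10.8, 11.3, 10.5 and 11.3, and lay above all microglia samples. APP/PS1 astrocytes, at 9.79, 9.83, 10.4 and 10.1, overlapped both microglia groups.

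Ermn, ermin, a cytoskeletal protein of mature oligodendrocytes, had means of 7.40 ± 0.51 in APP/PS1 astrocytes, 7.89 ± 0.85 in WT astrocytes, 8.19 ± 1.10 in APP/PS1 microglia and 8.26 ± 0.97 in WT microglia (SD, n = 4, 4, 7 and 7). Its main probe spanned 6.32 to 9.62 within the APP/PS1 microglia. The difference between cell types was -0.58 (95% interval -1.45 to 0.29; adjusted p = 0.26). The second Ermn probe, with less spread, passed at -0.96 (adjusted p = 0.0014). Opalin, a transmembrane protein of oligodendrocytes, was the dimmest member, with a mean of 4.23 over the 22 samples, and its 4 groups overlapped. Its difference was -0.88 (95% interval -1.84 to 0.09; adjusted p = 0.12).

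**Figure D1:**
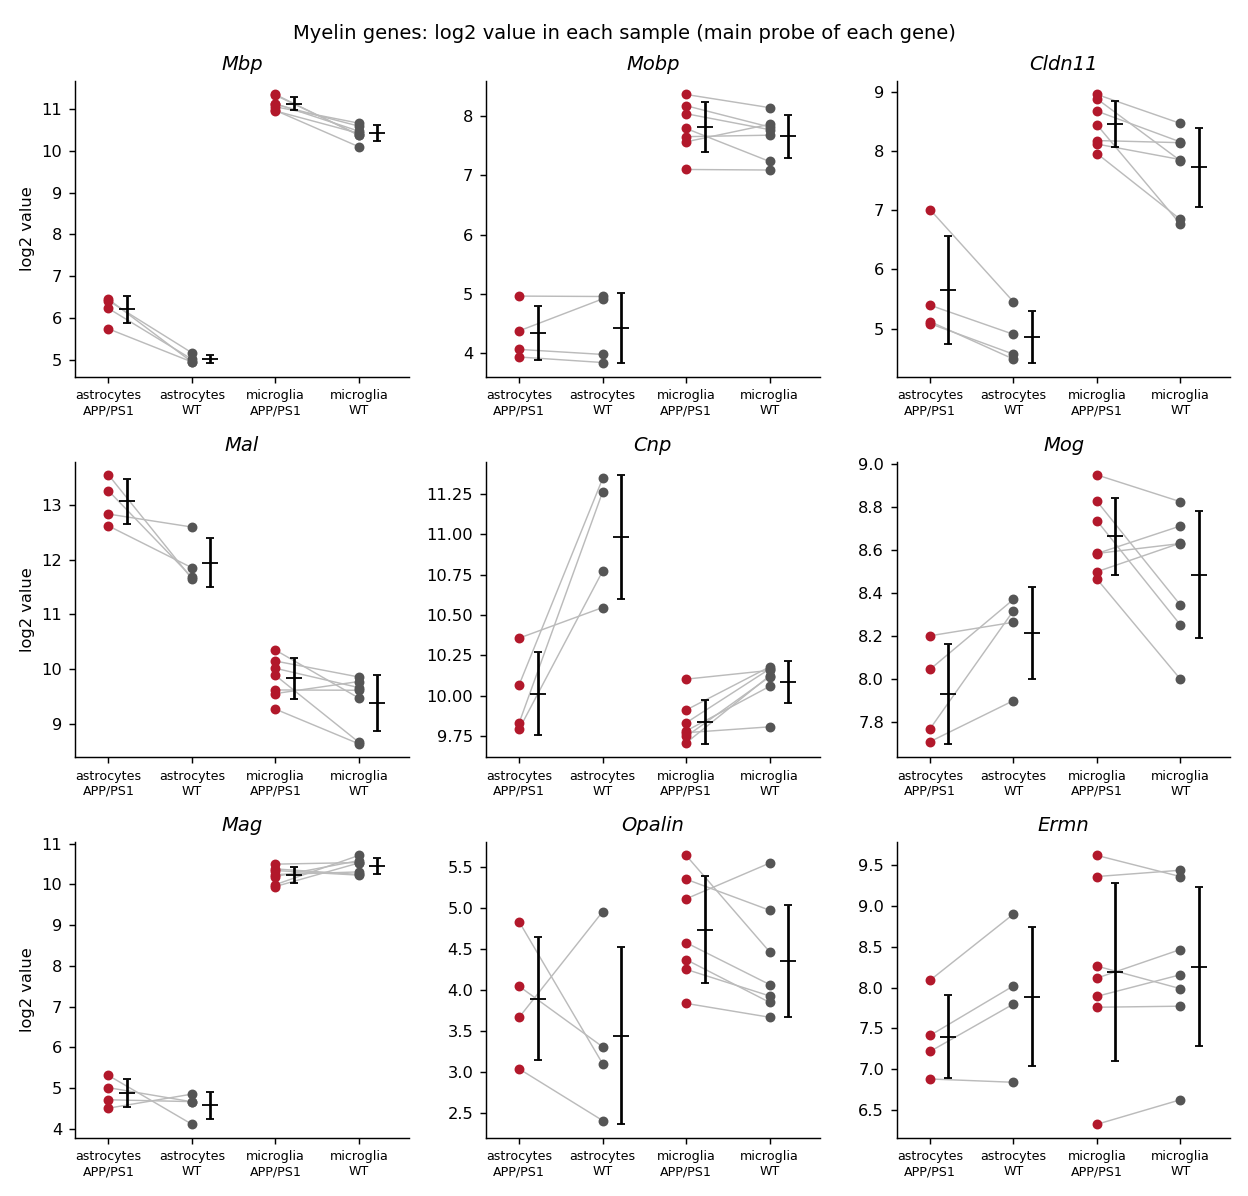
Log2 value of the main probe of each of the 9 myelin genes (vertical axes, one scale per gene) in APP/PS1 and WT astrocytes (4 samples each) and APP/PS1 and WT microglia (7 samples each). Points are samples, grey lines join the 2 samples of an array, and bars are the mean ± SD; Mbp and Mag sit between 4.11 and 6.45 in astrocytes and from 9.95 upward in microglia, while Mal is higher in astrocytes.

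Within arrays, 5 of the 9 members changed between APP/PS1 and WT astrocytes, 3 rising and 2 falling. Mbp, Mal and Cldn11 rose and Cnp and Ermn fell. Over all 22474 genes tested, 15.4% were called higher and 18.0% lower. The median difference was 0.31 over the members and -0.07 over all genes. No test here sets the members' 3 and 2 calls apart from these shares. The count was 2 without astrocyte array 2, 3 without array 4, and 1, Mbp, with astrocytes fitted alone.

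Between APP/PS1 and WT microglia, 2 of the 9 members rose, Mbp and Cldn11, and 0 fell. Of 22386 genes tested, 8.27% were called higher and 11.4% lower. The members' median was 0.20 and that of all genes -0.04. An unadjusted p under 0.05 was reached by 3 members in microglia, the third being Mog, and by 6 in astrocytes, the sixth being Mog.

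Mbp rose in both cell types. On astrocyte arrays 1 to 4 the APP/PS1 sample was higher by 1.24, 1.50, 1.22 and 0.79, and the APP/PS1 and WT values did not overlap. The fitted difference was 1.19 ± 0.13 (SE, log2; adjusted p = 0.000243); the WT astrocyte values, at 5.17 or below, lay under the median of all probes. On microglia arrays 1 to 7 the APP/PS1 sample was higher by 0.52, 0.98, 0.53, 0.87, 0.66, 0.95 and 0.39, again without overlap between genotypes. The fitted difference in microglia was 0.71 ± 0.10 (adjusted p = 0.000965), a 1.63-fold rise. The sign held in either dye: arrays with the APP/PS1 sample in Cy5 averaged 1.00 in astrocytes and 0.93 in microglia, and those with it in Cy3 averaged 1.37 and 0.53. The astrocyte call held in each alternative run; fitted on slide 2 alone (microglia arrays 1, 6 and 7) the microglia difference was 0.70 with an adjusted p of 0.11, and on slide 1 alone it was 0.76 (adjusted p = 0.034).

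The 3 Mbp probes did not move alike. The dimmest also rose in both cell types: it measured 4.83, 4.19, 5.05 and 4.36 in APP/PS1 astrocytes and 3.77, 3.16, 3.93 and 2.98 in WT astrocytes. Its fitted difference was 1.15 ± 0.08 in astrocytes (adjusted p = 7.96e-05, over 33005 probes) and 0.59 ± 0.06 in microglia (adjusted p = 0.000135, over 32872 probes). The middle probe measured 5.42, 5.65, 5.95 and 5.34 in APP/PS1 astrocytes and 5.59, 5.87, 5.87 and 5.16 in WT astrocytes. It differed by -0.03 in astrocytes (adjusted p = 0.86) and by 0.07 in microglia (adjusted p = 0.65). The annotation gives the brightest probe to one RefSeq transcript of Mbp and the other 2 to another. The gene also produces the Golli transcripts, which are made in immune cells as well as in oligodendrocytes; which transcripts each probe detects was not settled here.

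**Figure D2:**
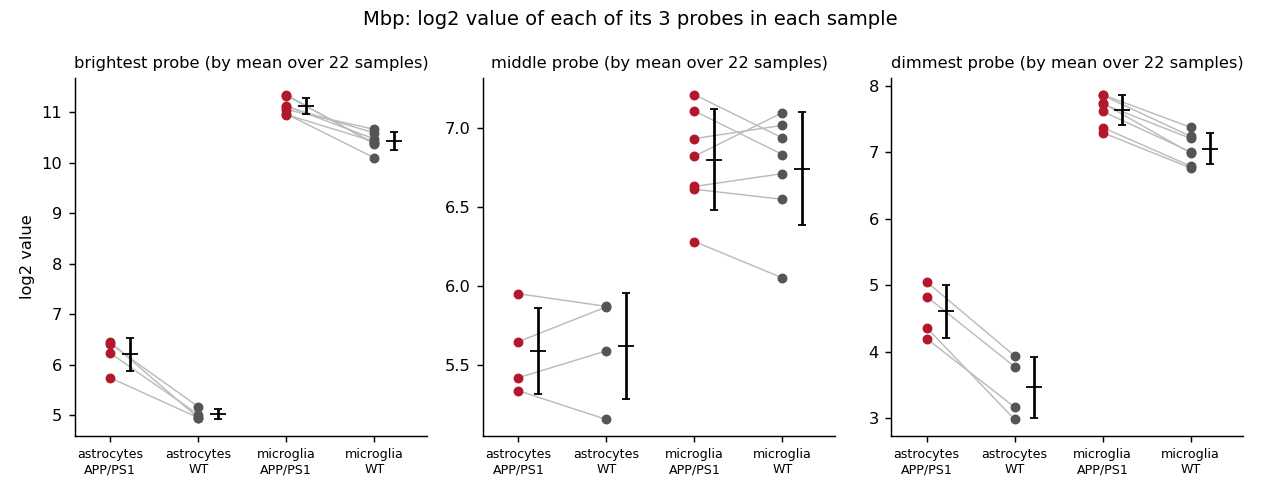
Log2 value of the brightest, middle and dimmest Mbp probe (3 panels, each with its own scale) in each of the 22 samples by group; grey lines join the 2 samples of an array and bars are the mean ± SD. The APP/PS1 samples lie above the WT sample of the same array for the brightest and dimmest probes on 4 of 4 astrocyte and 7 of 7 microglia arrays, and on 2 of 4 and 4 of 7 for the middle probe.

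Cldn11 was higher in the APP/PS1 sample of every array. The differences on the 4 astrocyte arrays were 0.63, 0.49, 1.56 and 0.52, and those on the 7 microglia arrays were 0.52, 0.04, 1.68, 1.11, 0.26, 1.05 and 0.49. The fit gave 0.80 ± 0.27 in astrocytes (adjusted p = 0.043) and 0.75 ± 0.20 in microglia (adjusted p = 0.029). The ranges of the genotypes overlapped in both cell types. The astrocyte call was lost with astrocytes fitted alone (adjusted p = 0.081) and without the replicate block (adjusted p = 0.26). It was also lost when any one of the 4 astrocyte arrays was left out (0.54 to 0.94, adjusted p = 0.056 to 0.193). The microglia call was lost without array 1, 4, 6 or 7 (0.69 to 0.78, adjusted p = 0.051 to 0.086). Nor did it pass without the replicate block (adjusted p = 0.25), on slide 1 alone (adjusted p = 0.23) or on slide 2 alone (adjusted p = 0.098). On the arrays whose samples were alike in Eif2s3y the differences were 0.50 in astrocytes (adjusted p = 0.41) and 0.77 in microglia (adjusted p = 0.066), a subset chosen after seeing the data.

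Mal was higher in the APP/PS1 sample on 4 of 4 astrocyte arrays, by 0.24, 1.58, 0.76 and 1.90, and the groups did not overlap. Its fitted difference of 1.12 ± 0.29 (adjusted p = 0.014) corresponds to a 2.17-fold rise. Without astrocyte array 2 it was 0.92 (adjusted p = 0.081), without array 4 it was 0.85 (adjusted p = 0.077), and with astrocytes fitted alone it did not pass (adjusted p = 0.096). In microglia Mal was higher on 6 of 7 arrays, with a fitted difference of 0.46 (95% interval -0.03 to 0.96; adjusted p = 0.19). Mobp was close to the WT sample on 3 of 4 astrocyte arrays, at 0.08, 0.01 and 0.09, and lower on array 2, at -0.54. Its fitted difference was -0.09 in astrocytes (95% interval -0.43 to 0.25; adjusted p = 0.70) and 0.15 in microglia (95% interval -0.10 to 0.41; adjusted p = 0.41). None of its 3 probes passed in either cell type.

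Cnp was lower in the APP/PS1 sample of every array. The differences were -0.98, -1.43, -0.19 and -1.28 on the astrocyte arrays, and APP/PS1 and WT astrocytes did not overlap. The fitted difference was -0.97 ± 0.16 (adjusted p = 0.0014), a 1.96-fold fall. On the 7 microglia arrays the differences ran between -0.42 and -0.04, and the fit gave -0.23 (95% interval -0.50 to 0.04; adjusted p = 0.24). Fitted in microglia alone, the difference of -0.24 passed (adjusted p = 0.036); fitted in astrocytes alone, that of -0.97 did not (adjusted p = 0.068).

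Ermn fell in APP/PS1 astrocytes at its main probe, with differences of -0.58, -0.81, -0.61 and 0.04 on the 4 arrays. The fit gave -0.49 ± 0.13 (adjusted p = 0.017), and the groups overlapped. The call was lost under 7 of 13 alternatives. Without array 2 it was -0.43 (adjusted p = 0.082) and without array 3 it was -0.39 (adjusted p = 0.081). The adjusted p was 0.25 with array as a random block, 0.73 without the replicate block and 0.12 with astrocytes fitted alone. It was 0.073 with the mean of all probes and 0.20 on the arrays alike in Eif2s3y. The second probe differed by -0.11 in astrocytes (adjusted p = 0.60) and by 0.22 in microglia (adjusted p = 0.20). Ermn in microglia differed by -0.04 at the main probe (95% interval -0.27 to 0.18; adjusted p = 0.81).

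Mog, Mag and Opalin did not pass in either cell type. Mog was lower on 4 of 4 astrocyte arrays, by -0.33, -0.55, -0.06 and -0.19, with a fitted difference of -0.28 (95% interval -0.54 to -0.03; adjusted p = 0.088), which passed among genes above the median gene (adjusted p = 0.037). On the microglia arrays Mog was higher on 4 of 7, and the fit gave 0.20 (95% interval 0.01 to 0.40; adjusted p = 0.15). Mag differed by 0.31 in astrocytes (95% interval -0.20 to 0.83; adjusted p = 0.34) and by -0.23 in microglia (95% interval -0.62 to 0.16; adjusted p = 0.42), where the difference of -0.26 passed with microglia fitted alone (adjusted p = 0.023). With the APP/PS1 sample in Cy5, Mag in microglia averaged -0.56, and with it in Cy3, 0.04. Opalin ranged from -1.29 to 1.73 over the astrocyte arrays and from -0.43 to 1.17 over the microglia arrays. Its fitted differences were 0.45 (adjusted p = 0.43) and 0.35 (adjusted p = 0.47), and without astrocyte array 3 the astrocyte difference was 1.05 (adjusted p = 0.026).

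**Figure D3:**
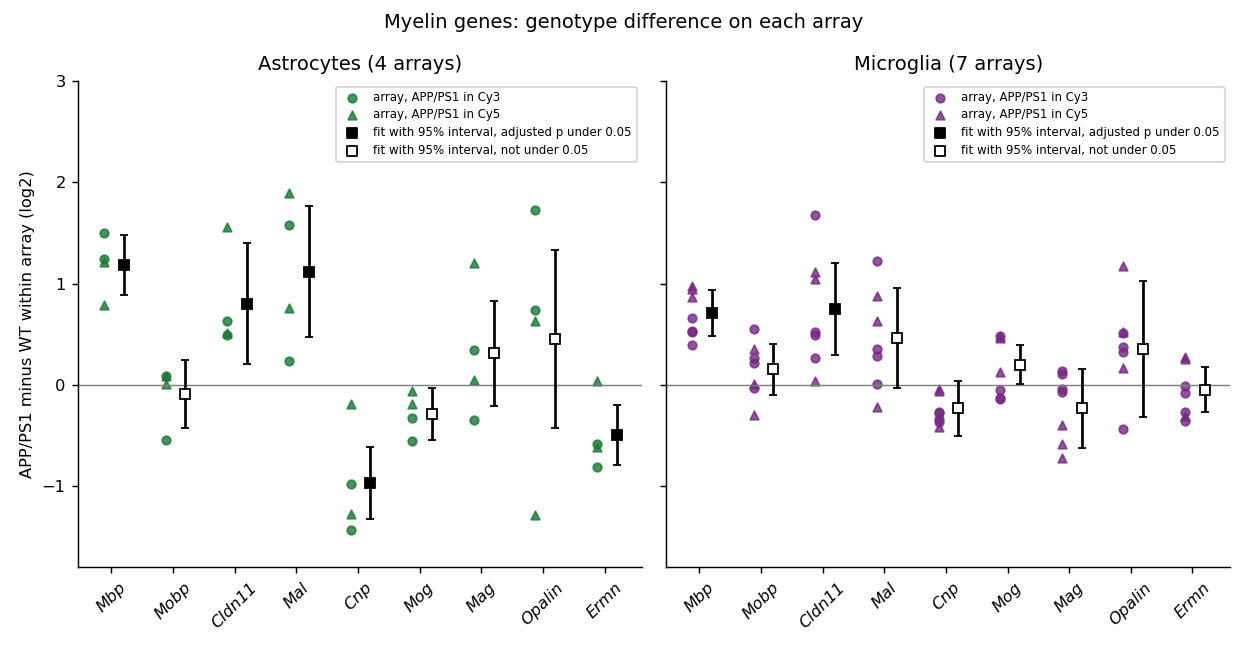
APP/PS1 minus WT difference in log2 value within each array (vertical axis) for the 9 myelin genes in astrocytes (4 arrays) and microglia (7 arrays); circles have the APP/PS1 sample in Cy3 and triangles in Cy5. Squares are the fitted difference with its 95% interval, filled where the adjusted p is under 0.05: Mbp, Cldn11, Mal, Cnp and Ermn in astrocytes, and Mbp and Cldn11 in microglia.

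The genotype effects themselves differed between the cell types for 2 members, in a test of the astrocyte effect minus the microglia effect. Cnp gave -0.74 ± 0.20 (SE, log2; adjusted p = 0.022) and Mog gave -0.48 ± 0.14 (adjusted p = 0.033), so 0 members were called higher and 2 lower. Over 22386 genes, 13.4% were called higher and 13.2% lower. Mog was lower on all astrocyte arrays. In microglia its fitted difference was positive, but it was lower on 3 of 7 arrays. There it averaged 0.36 with the APP/PS1 sample in Cy5 and 0.04 with it in Cy3. Neither effect passed by itself. The Mog call was lost without any one of the 4 astrocyte arrays or without microglia array 4 or 6 (-0.53 to -0.44, adjusted p = 0.051 to 0.101). It was also lost without the dye term (adjusted p = 0.079), without the replicate block (adjusted p = 0.25) and on arrays alike in Eif2s3y (adjusted p = 0.093). The Cnp call was lost without astrocyte array 2 (-0.60; adjusted p = 0.085) or 4 (-0.58; adjusted p = 0.064). For Mbp the difference of effects was 0.48 (95% interval 0.11 to 0.85; adjusted p = 0.059) at the main probe and 0.55 ± 0.10 (adjusted p = 0.0031) at the dimmest probe. For Ermn it was -0.45 (95% interval -0.82 to -0.07; adjusted p = 0.075).

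Markers of other cell types moved with genotype in the same samples. In APP/PS1 astrocytes 11 of 14 microglia markers rose and 2 fell, and 12 of 13 astrocyte markers fell and 1 rose. Of the endothelial markers 10 of 11 rose, and of the mural markers 7 of 9 rose. Over all genes 15.4% rose and 18.0% fell there. On astrocyte arrays 1 to 4 the median difference over the microglia list was 3.33, 1.75, 1.78 and 0.24. Mbp, whose level was far higher in microglia than in astrocyte samples, was higher by 1.24, 1.50, 1.22 and 0.79 on the same arrays, which is another order than that of the list. Mag and Mobp were also far higher in microglia than in astrocyte samples and did not pass. Their astrocyte values lay below the median of all probes, and no call of signal over background was used. Mag differed by -0.34, 0.35, 1.20 and 0.05 and Mobp by 0.08, -0.54, 0.01 and 0.09 on these arrays. Over the endothelial list the medians were 0.29, 1.51, 1.19 and 1.89, and the Mal differences of 0.24, 1.58, 0.76 and 1.90 came in the same order. Over the astrocyte list they were -2.37, -1.77, -0.35 and -1.73, and both this list and Cnp were nearest to 0 on array 3. Of 14 neuron markers in astrocytes, 1 rose and 2 fell, not above the shares over all genes, with a median of 0.27. In APP/PS1 microglia 8.27% of all genes rose and 11.4% fell. Of the microglia markers there, 1 of 14 rose and 7 fell, and of the astrocyte markers 1 of 13 rose and 6 fell. Of 14 neuron markers 0 rose and 7 fell, and 1 of 11 endothelial and 0 of 9 mural markers changed. Many genes and lists were ordered on few arrays, so some orders match by chance. The part of these markers in the myelin gene results was not tested.

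Oligodendrocyte markers other than the 9 members were measured as well. Of 20 mature oligodendrocyte markers, 4 rose and 2 fell in APP/PS1 astrocytes, and 3 rose and 0 fell in APP/PS1 microglia. Over all genes 15.4% rose and 18.0% fell in astrocytes and 8.27% rose and 11.4% fell in microglia. Of 12 oligodendrocyte precursor markers, 1 rose and 3 fell in astrocytes, and 2 rose and 0 fell in microglia. The sample medians of the mature list lay between 5.51 and 6.35 in APP/PS1 astrocytes, 5.76 and 6.19 in WT astrocytes, 5.07 and 6.71 in APP/PS1 microglia, and 4.61 and 6.53 in WT microglia, so all groups overlapped. On microglia arrays 1 to 7 the mature list had median differences of 0.28, -0.23, 0.72, 0.70, 0.05, 0.46 and 0.15. Ordered by this median, the arrays ran 2, 5, 7, 1, 6, 4 and 3, and ordered by the Cldn11 difference they ran the same way. On the astrocyte arrays the order was 2, 1, 4 and 3 for the list and 2, 4, 1 and 3 for Cldn11. Mog and the precursor list also ran 2, 1, 4 and 3 there. The endothelial list in microglia also began with arrays 2, 5 and 7 and went on with 4, 3, 6 and 1. Mal was lowest on arrays 2, 5, 7 and 1, in the order of the mature list, and highest on array 3. Mbp took another order, with its largest difference on array 2, where the mature list was lowest. The part of oligodendrocyte or endothelial RNA in the Cldn11, Mog and Mal values was not tested.

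**Figure D4:**
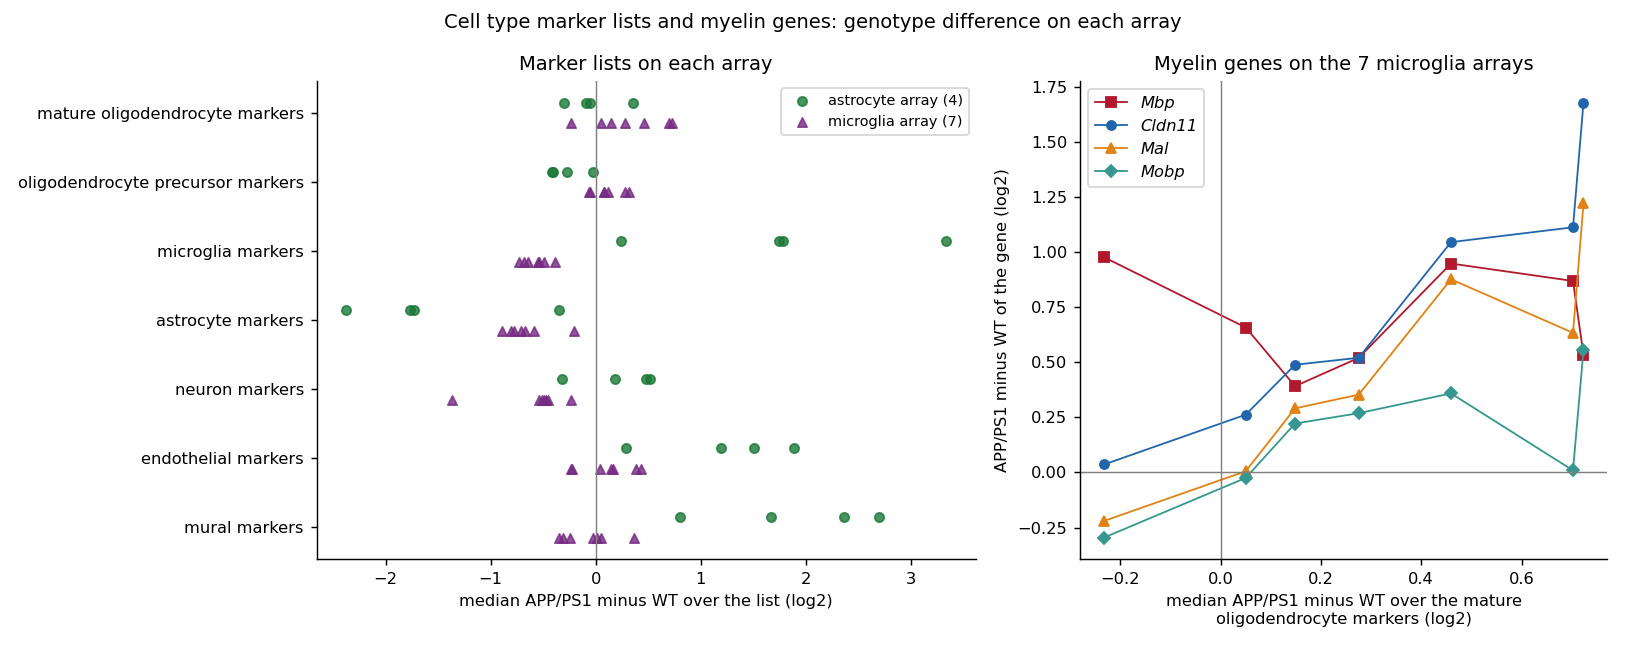
Left, median APP/PS1 minus WT difference (log2) over each of 7 cell type marker lists, one point per array (4 astrocyte arrays, 7 microglia arrays). Right, for the 7 microglia arrays, the difference of Mbp, Cldn11, Mal and Mobp (vertical axis) against the median over the mature oligodendrocyte markers (horizontal axis), lines joining one gene's points; Cldn11 runs between 0.04 and 1.68 in the order of the list, and Mbp does not follow it.

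The 2 brightest markers of each list give examples. Trf, transferrin, listed as an oligodendrocyte marker and also made by other cells, averaged 9.44 in APP/PS1 and 8.28 in WT astrocytes and rose by 1.16 (adjusted p = 0.0062), and it averaged 15.1 in APP/PS1 and 15.3 in WT microglia. Ppp1r14a, a phosphatase inhibitor of oligodendrocytes and smooth muscle, rose by 2.21 in astrocytes (adjusted p = 0.000403). Cspg4, the NG2 proteoglycan of oligodendrocyte precursors and pericytes, rose by 2.38 in astrocytes (adjusted p = 0.00049) and by 2.36 in microglia (adjusted p = 0.000141). Vcan, versican, fell by 0.48 in astrocytes (adjusted p = 0.0084). The smooth muscle genes Tagln and Acta2 rose in astrocytes by 2.00 and 1.83 (adjusted p = 0.0016 and 0.000933), and the endothelial receptor gene Flt1 rose by 0.90 (adjusted p = 0.029) there and by 2.71 in microglia (adjusted p = 2.3e-05). Ly6c1, the other bright endothelial marker, differed by 1.10 in astrocytes (adjusted p = 0.16). Csf1r, the receptor for colony stimulating factor, rose by 1.60 in astrocytes (adjusted p = 0.0073), where Siglech, a lectin gene of microglia, fell by 0.77 (adjusted p = 0.000517). Aldoc, a glycolytic enzyme of astrocytes, fell by 1.36 (adjusted p = 0.0048) and Slc1a3, a glutamate transporter of astrocytes, fell by 1.62 (adjusted p = 0.0006) there. The neuronal gene Snap25 fell by 0.50 (adjusted p = 0.010) while Syp differed by -0.13 (adjusted p = 0.25). The neuron marker that rose in astrocytes was Stmn2, a stathmin of growing neurites, by 1.08 (adjusted p = 0.0030), named after its value was seen.

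Of 22 other myelin proteins tested in APP/PS1 astrocytes, 7 rose and 7 fell, with a median of -0.15, while 15.4% of all genes rose and 18.0% fell. Tspan2, a tetraspanin of myelin, rose by 2.20 ± 0.29 (SE, log2; adjusted p = 0.000476), and Tppp, a tubulin-binding protein of oligodendrocytes, rose by 1.14 ± 0.15 (adjusted p = 0.000534). Nfasc, the neurofascin of paranodal junctions, fell by 0.69 ± 0.10 (adjusted p = 0.000594), and Ninj2, ninjurin, an adhesion protein, fell by 1.19 ± 0.18 (adjusted p = 0.000935). In microglia 3 of the 22 rose and 1 fell, with a median of 0.14, while 8.27% of all genes rose and 11.4% fell. Gjc3, an oligodendrocyte gap junction protein, rose by 0.67 (adjusted p = 0.0026), Cd9, a tetraspanin that many cells carry, by 0.54 (adjusted p = 0.022) and Sirt2, a deacetylase, by 0.20 (adjusted p = 0.044), whereas Tppp fell by 1.02 (adjusted p = 0.000282). Tppp thus moved in opposite directions, and the difference of its effects was 2.16 ± 0.19 (adjusted p = 9.8e-05). Over this list the difference of effects, astrocytes minus microglia, was called higher for 4 of 22 genes and lower for 8. Over all genes 13.4% were called higher and 13.2% lower.

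Among 14 genes of myelin lipid synthesis and metabolism, 4 rose and 2 fell in APP/PS1 astrocytes, and 2 rose and 1 fell in APP/PS1 microglia, while 15.4% of all genes rose and 18.0% fell in astrocytes and 8.27% rose and 11.4% fell in microglia. Adssl1, a purine nucleotide enzyme, rose by 1.18 in astrocytes (adjusted p = 0.0012) and by 1.76 in microglia (adjusted p = 3.4e-05). Gltp, a glycolipid transfer protein, rose by 0.42 in astrocytes (adjusted p = 0.013) and by 0.53 in microglia (adjusted p = 0.0015). Car2, a carbonic anhydrase of oligodendrocytes and other cells, fell by 1.38 in astrocytes (adjusted p = 0.0073), and Gstp1, a glutathione transferase, rose by 0.49 (adjusted p = 0.0065). Enpp4, a nucleotide hydrolase, fell by 0.47 in microglia (adjusted p = 0.0061).

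Of 11 genes listed as oligodendrocyte transcription factors, 2 rose and 5 fell in APP/PS1 astrocytes, with a median of -0.55, and 1 rose and 0 fell in APP/PS1 microglia, with a median of -0.05. The shares over all genes were again 15.4% and 18.0% in astrocytes and 8.27% and 11.4% in microglia. Olig1 and Olig2, which specify the oligodendrocyte lineage and are read in some astrocytes, averaged 10.01 ± 0.60 and 7.38 ± 0.61 in APP/PS1 astrocytes, against 11.6 ± 0.27 and 9.02 ± 0.30 in WT astrocytes (SD, n = 4 each). Olig1 fell by 1.62 (adjusted p = 0.0012) and Olig2 fell by 1.64 (adjusted p = 0.0015), and Sox8 fell by 1.63 (adjusted p = 0.0017). These 3 genes were also higher in astrocyte than in microglia samples, by 3.74, 3.93 and 4.81. Carns1, which rose by 1.08 in astrocytes (adjusted p = 0.0024), makes carnosine and is no transcription factor. Sox10, the factor that drives many myelin genes, differed by -0.21 in astrocytes (adjusted p = 0.33) and by 0.14 in microglia (adjusted p = 0.45). Myrf, which is needed for myelin gene transcription, differed by -0.53 (adjusted p = 0.086) and 0.21 (adjusted p = 0.46) in the same comparisons. Zfp536 was the factor that rose in microglia, by 0.37 (adjusted p = 0.044).

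**Figure D5:**
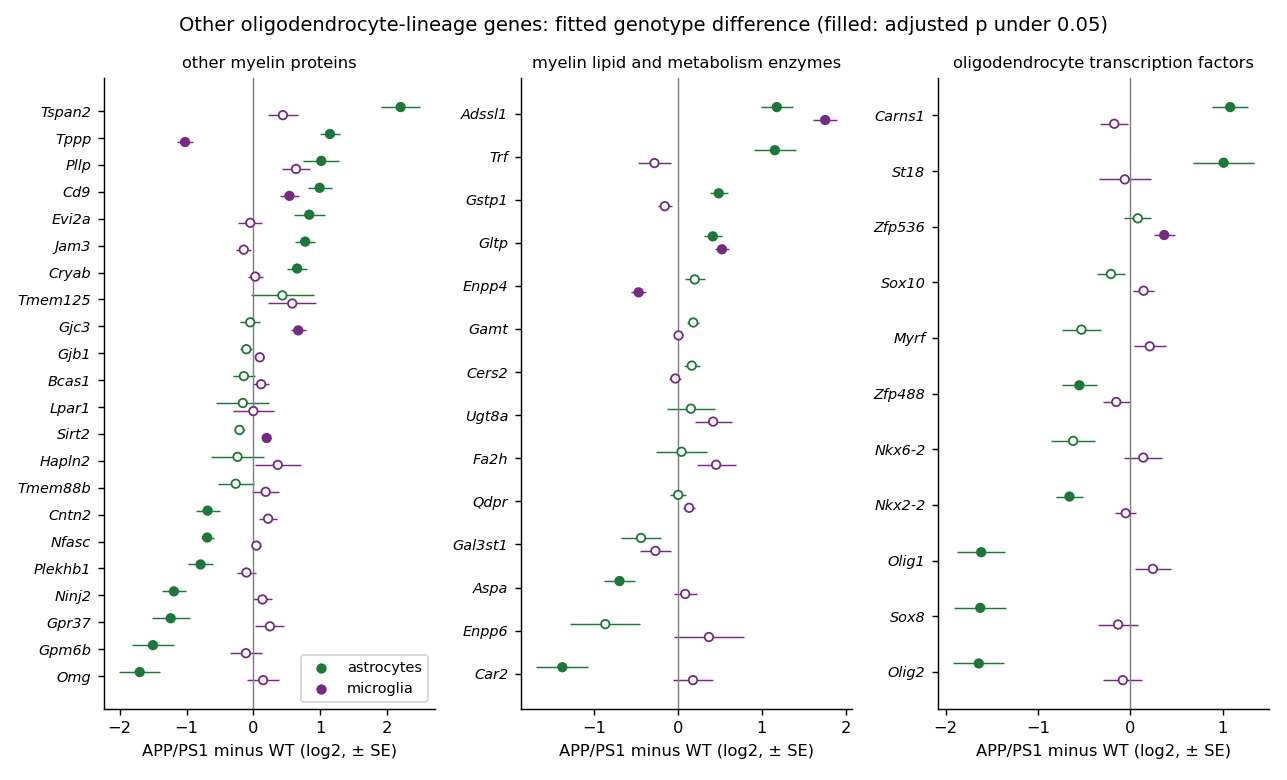
Fitted APP/PS1 minus WT difference (log2, ± SE, horizontal axis) of each tested gene of 3 lists: 22 other myelin proteins, 14 myelin lipid and metabolism enzymes and 11 genes listed as oligodendrocyte transcription factors, in astrocytes (green) and microglia (purple). Filled points have an adjusted p under 0.05; in astrocytes Tspan2 lies highest at 2.20, and Olig1, Olig2 and Sox8 lie near -1.6.

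The members did not vary as one block across samples. Each member was set against the mean profile of the 9 members, after centring each gene. Across the 14 microglia samples Pearson's r with that mean was 0.90 for Mal, 0.89 for Mobp, 0.86 for Cldn11, 0.78 for Mog, 0.76 for Opalin, 0.60 for Mbp and 0.57 for Ermn, but 0.13 for Cnp and -0.07 for Mag. Across the 8 astrocyte samples it lay between 0.23 and 0.80 for 8 members and was -0.49 for Cnp. Each member is part of the mean it was set against, and samples share arrays and slides, so these are descriptions. The genes outside the set with the most similar profile were Sbk1 (r = 0.96), Aknaos, Nos3, Mef2d and Zdhhc1 (0.95 each) among 16370 genes measured in all microglia samples. Among 21931 genes in astrocyte samples they were Crb1 (0.96), Ces4a (0.95), Cyp21a1, H2ac11 and Cypt15 (0.94 each).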

How the data were processed

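The deposited table holds log2 values of the authors, one column per channel of 2-colour Agilent arrays, 22 columns from 11 arrays; amplification and Cy3 or Cy5 labelling are per the labels' protocols. The submitters' processing notes name limma, with no version. How background, normalization and centring were handled is not given in the sources used here. Log base 2 was taken from the range of the values (-0.95 to 17.9). Every column has the same highest value, 17.9, and a median between 6.24 and 6.26. The columns were thus already close to equal in spread, and the quantile alternative below could change little. Blank values fall on both channels of an array and numbered 151 to 593 of 43020 probes on astrocyte arrays and 2249 to 10975 on microglia arrays; 1 Mobp probe is blank on microglia array 4. Of the probes, 33026 gave 1 gene symbol, 0 gave more than that and 9994 gave no symbol and were left out; 32438 matched RefSeq and 0 symbols changed. The brightest of a gene's probes stood for each of 22485 genes.

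Genotype effects were fitted with limma 3.58.1 (R 4.3.3) on APP/PS1 minus WT within each array, with dye as a covariate and 1 spread for both cell types. The pairing comes from the labels (shared arrays); across genes, the deviations of the 2 samples of an array from their group means had correlations of 0.00 to 0.50 (median 0.23) on astrocyte arrays and 0.37 to 0.63 (median 0.47) on microglia arrays. For the cell type difference, group means and dye were fitted and array was a random block (statmod 1.5.0, consensus correlation 0.64). P-values were two-sided and adjusted by the Benjamini-Hochberg method over all genes, with a threshold of 0.05, and the fits were tested on simulated data. Named were the 9 members with every probe; from each of 3 lists of related genes, per comparison, at most 4 genes past the threshold with the smallest adjusted p (Sox10 and Myrf were added for their role, with values seen, and not all are printed); the 2 brightest genes of each marker list; and the 5 genes most like the members. The members, lists and tests were chosen with earlier results of these data known. Alternatives were no replicate block, no dye term, array or slide as a random block, columns made equal by quantiles, the mean of all probes, filters on dim or blank genes, each cell type or slide alone, WT samples alone, leaving out each replicate, and, added after seeing the data, arrays alike in Eif2s3y and a fit over every probe.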

Additional observations from a re-analysis of the deposited data

Results flagged for a closer look

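Of 54 sets of values tested, 4 held a value set apart from the rest of its group, and chance gives about 1 in 20. Cldn11 in APP/PS1 astrocyte sample 3, at 7.01, lay far above the other 3 samples, and so did its difference from the WT sample on that array, 1.56. The Mobp difference on astrocyte array 2, -0.54, lay below the other 3. The Cnp value of WT microglia sample 4, 9.81, lay below the other 6. Genotype effects differed between cell types, astrocytes minus microglia, by -0.48 for Mog and by -0.74 for Cnp.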

How the results depend on the processing

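Over all alternatives the 9 members kept direction and side of the threshold in 538 values, lost the call in 41, gained one in 16 and reversed in 13. No value that had passed changed sign. The 538 include the quantile alternative, which could change little because the deposited columns were already close to equal. In microglia, with 2 members called, the count was 1 without the replicate block, 4 with microglia fitted alone (2 higher, 2 lower), 1 on slide 1 alone, 0 on slide 2 alone (limma; 3 at an unadjusted p under 0.05), 1 on arrays alike in Eif2s3y, and 1 to 2 with a replicate left out. In astrocytes, with 5 called, it was 3 without the replicate block, 1 with astrocytes fitted alone, 3 on arrays alike in Eif2s3y and 2 to 4 with a replicate left out. For the difference of effects, with 2 called, it was 1 without the replicate block, 1 without the dye term, 1 on arrays alike in Eif2s3y, 4 among genes above the median gene, 4 among genes measured on all arrays, and 0 to 2 with a replicate left out; 0 came without astrocyte replicate 2 (limma; 2 at an unadjusted p under 0.05). Astrocytes against microglia gave 7 called and stayed within 1.5 times of that. Without the replicate block Mbp passed in both cell types (adjusted p = 0.000667 in astrocytes and 0.0011 in microglia), and Cldn11 in both, Ermn in astrocytes and Mog in the difference of effects lost their calls. The reversed values all belong to members that had not passed. Ermn in microglia was 0.0875 with the mean of all probes, 0.0474 on slide 2 alone and -0.0801 to 0.0436 with a replicate left out. Mobp in astrocytes was 0.0928 with the mean of all probes and -0.166 to 0.0908 with a replicate left out, and Mag in astrocytes -0.0542 to 0.590. The difference of effects for Cldn11 was -0.27 on arrays alike in Eif2s3y and -0.19 to 0.22 with a replicate left out, and for Opalin -0.35 to 0.67. Opalin has no value among genes above the median gene. Fewer arrays or genes enter the fits on part of the data; the cause of the other changes was not tested.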
